A study of Rattus norvegicus with 13 samples.

Results

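Neurotrophins are secreted growth factors that bind receptors on axons and cell bodies, and the probe sets of 2 of them and of 4 of their receptors were described here. The members are the probe sets whose single gene symbol in the array's annotation table is *Bdnf*, *Ntf3*, *Ntrk2*, *Ntrk3*, *Ngfr* or *Sort1*. These are 12 of 31099 probe sets and 6 of 14217 named genes, with 5 probe sets for *Ntrk2*, 2 each for *Bdnf* and *Sort1* and 1 for each of the other genes.

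*Bdnf* and *Ntf3* encode brain-derived neurotrophic factor and neurotrophin-3, which are made as longer precursors and cut to the mature factor. *Ntrk2* and *Ntrk3* encode the tyrosine kinase receptors TrkB and TrkC, and each gene also gives truncated receptors that lack the kinase; truncated TrkB is abundant in astrocytes. *Ngfr* encodes p75NTR, which binds every neurotrophin, and *Sort1* encodes sortilin, a sorting receptor that binds precursors together with p75NTR. In cortex, activated receptors are carried from the axon tip to the cell body in endosomes, and messenger RNAs of this system have been looked for in axons as well as in dendrites.

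Cortical cultures from rat were kept for 13 days in microfluidic devices that separate axons from cell bodies. Polyadenylated RNA was put on 13 GeneChip arrays. The 7 arrays of uninjured axons, drawn from 3 batches of cultures, are the controls. The 3 arrays of regenerating axons hold axons that were cut on day 11 and regrew for 2 days, and the 3 arrays of neurons hold uninjured material from the neuronal compartment of the device. All groups shared the same medium, harvest day and pooling of 3 devices per array, and strain, age and genotype are not given in the sources used here. Which uninjured array came from which of the 3 batches is not given, so the fits do not account for batches. Nothing states that the replicate arrays within a batch, or those of the other groups, hold separate cultures. P-values therefore measure only the spread between these arrays, which may be technical.

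The deposited values are linear ratios, not signals. In all rows the median of uninjured arrays 1 to 3 is 1, as is that of arrays 4 to 6, and array 7 is 1 throughout, so 6 uninjured arrays carry a measurement and their median of 1 is fixed by construction. The denominator of the regenerating and neuron arrays is not given in the sources used here. The level in uninjured axons was assumed, and all directions against uninjured axons rest on that. A ratio gives no level, so neither presence in axons nor the order of expression between genes can be read, and fewer cells of a type cannot be told apart from less RNA per cell. Unless marked SD, a value after ± is the standard error from limma (3 arrays in the first group), and a result passed at a Benjamini-Hochberg adjusted p under 0.05 over 31042 probe sets. Against uninjured axons these errors include an assigned error of the reference, equal to that of 1 array. Precision is limited by how few arrays there are.

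The ratios of hybridisation controls, transcripts added in equal amounts, had medians of 0.285, 0.931 and 0.156 in neuron arrays 1, 2 and 3, against 1.17 to 1.55 in the regenerating and 0.965 to 1.21 in the uninjured arrays. Neuron array 2 read lowest of its group in 11 of the 12 member probe sets and neuron array 3 read highest in 9. Over the whole array, neuron array 2 also had the lowest median ratio of its group, 0.9365, and neuron array 3 the highest, 0.9779. The order is therefore not shown to be a trait of the members, and its share over all probe sets was not counted. Whether what set the control ratios also set the order among the members was not tested. Of 29 probe sets for smell, taste and pheromone receptors, taken to be silent in cortical cells, 19 passed as lower in neurons than in uninjured axons, with a median log2 difference of -0.98 and a range from -1.61 to 0.20. A value in that range therefore does not separate a transcript from one taken as silent.

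Neurons were set against uninjured axons to compare the messenger RNAs of the neuronal compartment with those of axons. Both Trk receptor genes and *Sort1* were higher in neurons, *Ntrk2* by up to 13.9-fold, *Ntrk3* by 6.57-fold and 1 probe set of *Sort1* by 3.74-fold. The ligand genes *Bdnf* and *Ntf3* and the receptor gene *Ngfr* did not pass. Of the 12 probe sets 6 passed as higher in neurons, against 28.4% of all probe sets, and 0 passed as lower, against 27.5%. In the same 6 probe sets the neuron arrays lay wholly above the uninjured arrays, which was so for 33.1% of all probe sets, and in none did they lie wholly below, against 36.8%. The median log2 difference of the 12 was 1.38, beside -0.072 over all probe sets. Most of the 6 that passed are probe sets of *Ntrk2*, which holds 5 of the 12, so these counts and this median lean on that gene. By gene means 3 of 6 members passed, where 8520 of 14217 genes passed in either direction.

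**Figure D1:**
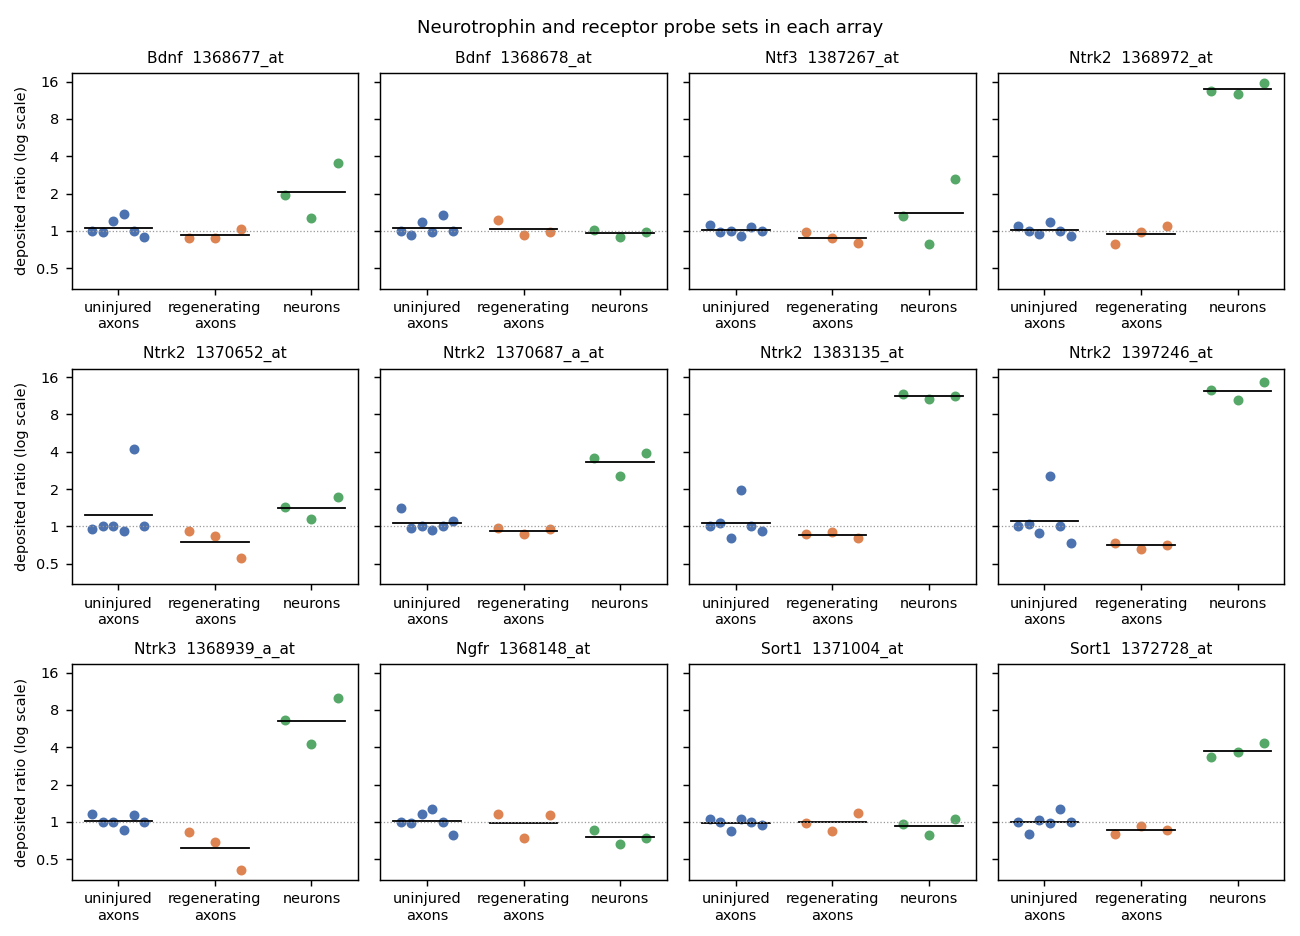
Deposited ratio of each of the 12 member probe sets on a log axis, 1 point per array, for 6 uninjured axon arrays, 3 regenerating axon arrays and 3 neuron arrays; black lines are geometric means and the dotted line marks a ratio of 1. The neuron arrays stand above all uninjured arrays for 4 probe sets of Ntrk2, for Ntrk3 and for Sort1 1372728_at. Uninjured array 4 stands out for Ntrk2 1383135_at and 1397246_at, and uninjured array 5 for Ntrk2 1370652_at.

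Among the ligands, the 2 probe sets of *Bdnf* differed. Probe set 1368677_at read 1.94, 1.27 and 3.54 in the 3 neuron arrays, against a range of 0.8905 to 1.36 over the uninjured arrays. Neuron array 2 fell inside the uninjured range and the other two lay above it. The log2 difference was 1.04 ± 0.46 (95% interval 0.0091 to 2.07, adjusted p = 0.0785). In limma it was log2 0.65 without neuron array 3 (adjusted p = 0.128). It passed without neuron array 2 (log2 1.39, adjusted p = 0.00952). It also passed where no error was given to the reference (adjusted p = 0.00193). With the 6 uninjured arrays as controls it passed too (adjusted p = 0.00741). Without the reference error 24873 of all 31042 probe sets passed, and with those controls 24003, against 17343 in the main fit. Passing there therefore sets 1368677_at apart from few other probe sets. Over the alternatives run its adjusted p ranged from 0.00193 to 0.128. Probe set 1368678_at read 1.02, 0.886 and 0.975 in neurons and 0.920 to 1.35 in uninjured axons, so the groups overlapped. Its log2 difference was -0.061 ± 0.24 (95% interval -0.59 to 0.47, adjusted p = 0.840). Within each of the 3 neuron arrays 1368677_at read higher than 1368678_at, by a mean log2 of 1.10 ± 0.69 (SD, n = 3).

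*Ntf3*, the ligand of TrkC, had the widest spread over the neuron arrays of the 12 probe sets (SD 0.87 on the log2 scale, n = 3). Its probe set 1387267_at read 1.32, 0.780 and 2.60 in neurons and 0.907 to 1.12 in uninjured axons. Array 2 lay below every uninjured array and the other two above. The log2 difference was 0.47 ± 0.49 (95% interval -0.62 to 1.57, adjusted p = 0.428), and without neuron array 2 it was 0.89 (adjusted p = 0.0480), whereas without neuron array 3 it was 0.021; the adjusted p over the alternatives ranged from 0.0480 to 0.957.

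*Ntrk2*, the receptor gene for BDNF, showed the widest range among its own probe sets. Probe set 1368972_at read 13.5, 12.8 and 15.6 in neurons and 0.905 to 1.18 in uninjured axons, a log2 difference of 3.80 ± 0.21 (13.9-fold, adjusted p = 3.43e-06). Probe set 1397246_at read 12.5, 10.4 and 14.7 in neurons and 0.728 to 2.57 in uninjured axons, a difference of 3.63 ± 0.54 (12.4-fold, adjusted p = 0.000504). Probe set 1383135_at read 11.7, 10.7 and 11.2 in neurons and 0.800 to 1.95 in uninjured axons, a difference of 3.48 ± 0.37 (11.2-fold, adjusted p = 6.97e-05). These 3 probe sets gave neuron ratios above 10 in every neuron array, and their differences lay above those of 95.6% to 96.9% of all probe sets.

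The other two probe sets of *Ntrk2* read lower ratios in the same arrays. Probe set 1370687_a_at read 3.57, 2.53 and 3.89 in neurons and 0.9265 to 1.40 in uninjured axons, a difference of 1.71 ± 0.29 (3.27-fold, adjusted p = 0.00109). Probe set 1370652_at read 1.43, 1.15 and 1.72 in neurons and 0.918 to 4.19 in uninjured axons, and its difference of 0.50 ± 0.68 did not pass (95% interval -1.02 to 2.02, adjusted p = 0.546). All 3 neuron arrays were above 1 for this probe set, but uninjured array 5, at 4.19, stood above them. The gaps between probe sets exceeded their spread over the neuron arrays: 1368972_at lay above 1370687_a_at by log2 2.08 ± 0.23 (SD, n = 3) and above 1370652_at by 3.29 ± 0.16 (SD, n = 3), and 1370687_a_at lay above 1370652_at in all 3 arrays, by log2 1.13 to 1.32. The annotation table ties each of the 5 to a different sequence record and does not say which receptor form it reads. Averaged over the 5, *Ntrk2* was higher in neurons by log2 2.62 ± 0.26 (adjusted p = 4.43e-05 over 14217 genes).

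*Ntrk3*, the receptor gene for neurotrophin-3, has 1 probe set, 1368939_a_at. It read 6.63, 4.27 and 10.0 in neurons and 0.858 to 1.16 in uninjured axons. All neuron arrays lay above all uninjured arrays, with array 2 lowest. The log2 difference was 2.72 ± 0.38 (6.57-fold, adjusted p = 0.000355), and it lay between 2.41 and 3.03 when single arrays were left out.

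*Ngfr*, the gene of the shared receptor p75NTR, was the only member with all neuron arrays below 1. Probe set 1368148_at read 0.857, 0.664 and 0.739 in neurons and 0.789 to 1.28 in uninjured axons, so 1 neuron array lay inside the uninjured range. The log2 difference was -0.42 ± 0.27 (95% interval -1.025 to 0.19, adjusted p = 0.213). Without an error of the reference it passed as lower (adjusted p = 0.0168). With the 6 uninjured arrays as controls it did likewise (log2 -0.45, adjusted p = 0.0219). In these settings 24873 and 24003 of all 31042 probe sets passed, against 17343 in the main fit. Passing there therefore sets *Ngfr* apart from few other probe sets. Over all alternatives run the adjusted p ranged from 0.0168 to 0.327. The value lies within the range of those receptor genes for smell and taste, as do those of *Bdnf* 1368678_at and *Sort1* 1371004_at.

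*Sort1* was higher in neurons by 1 of its 2 probe sets. Probe set 1372728_at read 3.32, 3.67 and 4.31 in neurons and 0.805 to 1.28 in uninjured axons, a log2 difference of 1.90 ± 0.25 (3.74-fold, adjusted p = 0.000215). Probe set 1371004_at read 0.971, 0.790 and 1.05 in neurons and 0.848 to 1.06 in uninjured axons, a difference of -0.10 ± 0.22 (95% interval -0.60 to 0.40, adjusted p = 0.710). The first probe set separated the groups fully and the second overlapped them, and the gap between the probe sets in neurons was log2 2.01 ± 0.22 (SD, n = 3). The gene mean was 0.90 ± 0.19 (adjusted p = 0.00317).

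*Ntf4*, the gene of neurotrophin-4, which also binds TrkB, read 0.416, 0.545 and 0.412 in neurons and 0.767 to 1.26 in uninjured axons, and was lower in neurons (log2 -1.14 ± 0.27, adjusted p = 0.00573), a value within the range of the receptor genes for smell, taste and pheromones. *Lingo1*, a coreceptor of p75NTR in the Nogo receptor complex, was higher by 2 of 3 probe sets, at 3.18 ± 0.38 (adjusted p = 0.000140) and 2.12 ± 0.39 (adjusted p = 0.00155), and lower by the third, at -0.70 ± 0.20 (adjusted p = 0.0148). *Nradd*, a relative of p75NTR, was lower by 2 of 3 probe sets, the larger difference being -1.66 ± 0.29 (adjusted p = 0.00115). Over this list of 22 probe sets from 8 genes, 7 passed as higher and 5 as lower in neurons, near the 28.4% and 27.5% over all probe sets, and the median log2 difference was 0.23.

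**Figure D2:**
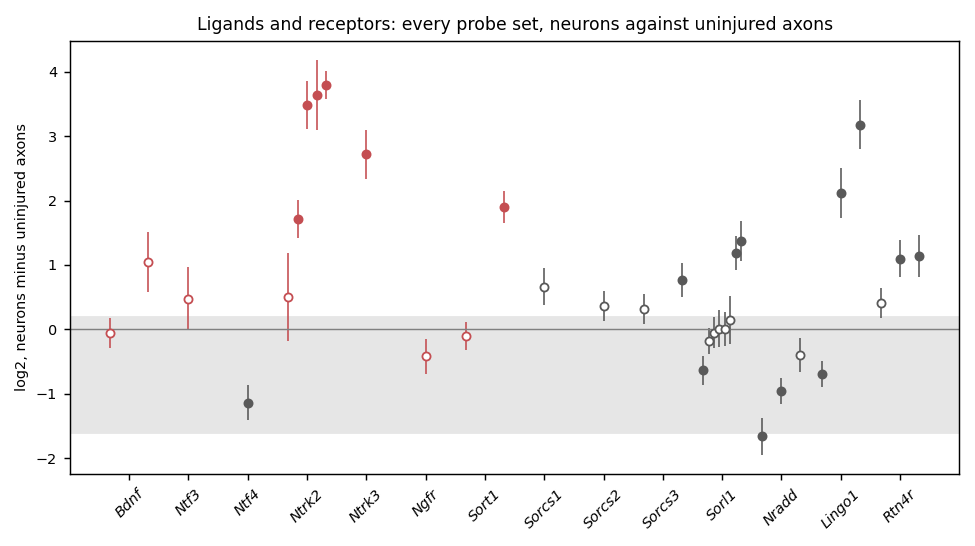
Log2 difference of neurons minus uninjured axons (± SE of the limma fit) for each probe set of the member genes (red) and of other ligands and receptors (grey), grouped by gene; filled points passed at an adjusted p under 0.05. The shaded band is the range of 29 probe sets for smell, taste and pheromone receptors, -1.61 to 0.20, and the Ntrk2 probe sets span 0.50 to 3.80.

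Genes that act before and after the receptors were counted by list, beside the 28.4% of all probe sets that passed as higher in neurons and the 27.5% that passed as lower. In proneurotrophin processing 5 of 16 probe sets were higher and 4 lower, near the shares over all probe sets, with *Cpe*, a carboxypeptidase that sorts BDNF precursor, at log2 5.75 ± 0.70 and *Serpini1*, an inhibitor of tissue plasminogen activator, at 4.26 ± 0.21, against the metalloproteases *Mmp9* at -1.17 ± 0.27 and *Mmp3* at -1.03 ± 0.29. Among adaptors of the Trk receptors 19 of 41 were higher and 4 lower, with the TrkB scaffold gene *Kidins220* at 5.24 ± 0.51 and *Crk* at 4.03 ± 0.26, against *Rapgef1* at -1.69 ± 0.23 and 1 probe set of *Grb2* at -1.39 ± 0.35. In the kinase cascades 20 of 44 were higher and 8 lower, with the small GTPase gene *Rap1b* at 5.17 ± 0.66 and the kinase gene *Camk2b* at 4.78 ± 0.25, against single probe sets of *Creb1* (-1.52 ± 0.34) and *Akt1* (-1.13 ± 0.28). These lists cover ligand maturation and the first steps of signalling, and each holds members in both directions.

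Effectors of p75NTR and endosomal genes were counted in the same way. Of 38 probe sets for p75NTR effectors 19 were higher and 4 lower, with *Maged1*, which encodes the p75NTR binding protein NRAGE, at log2 5.54 ± 0.49 and *Ywhae* at 5.28 ± 0.57, against *Casp9* at -1.18 ± 0.23 and 1 probe set of the adaptor gene *Traf6* at -1.67 ± 0.23. Of 45 for receptor trafficking and endosomes 27 were higher and 6 lower, with the ubiquitin ligase gene *Nedd4* at 5.25 ± 0.30 and the clathrin adaptor gene *Ap2m1* at 5.23 ± 0.36, against *Cbl* at -1.34 ± 0.23 and *Usp8* at -0.998 ± 0.22. The limma adjusted p-values of the genes named from these 5 lists ranged from 2.47e-06 to 0.0145. Over all 206 probe sets of the 6 lists 97 were higher and 31 lower, with a median log2 difference of 0.59, beside -0.072 over all probe sets. Of the falls named, those of *Nradd*, *Rapgef1* and *Traf6* lie below every one of the receptor genes for smell, taste and pheromones.

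**Figure D3:**
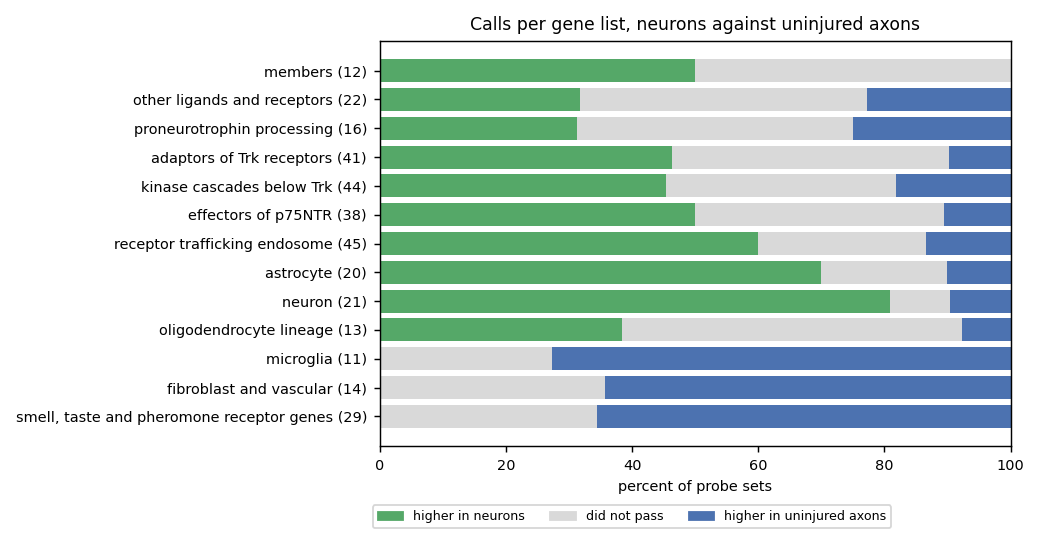
Percent of probe sets in each gene list that passed as higher in neurons (green), passed as higher in uninjured axons (blue) or did not pass (grey), with the number of probe sets in parentheses. Of the 12 members 6 were higher and 0 lower, and the astrocyte and neuron lists hold the largest green shares shown.

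Markers of cell types were counted in the same comparison, where 28.4% of all probe sets passed as higher in neurons and 27.5% as lower. Of 20 astrocyte probe sets 14 were higher in neurons and 2 lower, and their summed ratio was 322 to 424 in neurons, 19.6 to 34.7 in uninjured and 18.6 to 19.957 in regenerating axons. Of 21 neuron marker probe sets 17 were higher and 2, 1 each of *Tubb3* and *Dcx*, lower, with sums of 266 to 462, 19.4 to 28.1 and 13.2 to 15.1. Oligodendrocyte lineage markers were split 5 to 1 among 13, and 7 did not pass. Their sums were 75.01 to 88.6, 12.6 to 29.8 and 11.4 to 11.8, but their median ratio in the neuron arrays was only 1.20 to 1.36. Meanwhile 0 of 11 microglial and 0 of 14 fibroblast and vascular probe sets were higher, and 8 and 9 were lower. Microglial sums were 5.36 to 7.18, 10.5 to 11.9 and 12.7 to 14.1, and fibroblast and vascular sums 10.3 to 11.9, 13.1 to 14.6 and 13.6 to 13.9. Ratios cannot show whether a marker is at 0. The part of glial RNA in the excess of *Ntrk2* and *Ntrk3* in neurons was not tested.

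Among the uninjured arrays, array 4 read highest for the *Ntrk2* probe sets 1397246_at and 1383135_at, at 2.57 and 1.95, where the next highest arrays read 1.05 and 1.07. It also read highest for 1368972_at, at 1.18, but lowest for 1370652_at and 1370687_a_at of the same gene, at 0.918 and 0.9265. The same array held the highest sums of astrocyte (34.7, the others 19.6 to 21.5) and oligodendrocyte lineage markers (29.8, the others 12.6 to 14.3), but its median ratio over each of these lists was 1. The sums were raised by few probe sets, among them *Fabp7* at 14.7, *Pdgfra* at 12.9 and *Olig1* at 6.23. Its sum of neuron markers, 24.5, lay within the range of the other arrays. Whether glial RNA set the *Ntrk2* values of array 4 was not tested.

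Regenerating axons were set against uninjured axons to see what differs 2 days after the cut. No member passed. The log2 differences of the 12 probe sets lay between -0.70 and 0.055, 11 of them below 0 (45.7% of all probe sets were below 0), with a median of -0.15 beside 0.031 over all probe sets. *Ntrk2* holds 5 of the 12 probe sets, so the 11 are not separate genes. At an unadjusted p under 0.05 the limma count was 0 of 12 as well. Of all probe sets 0.00966% passed as higher and 0.335% as lower.

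*Ntrk3* did not pass, although its arrays did not overlap. Its probe set read 0.825, 0.694 and 0.410 in the regenerating arrays, all below the lowest uninjured array at 0.858, with a log2 difference of -0.70 ± 0.34 (95% interval -1.44 to 0.051, adjusted p = 0.501), which lay between -0.91 and -0.40 when single arrays were left out. It passed as lower without an error of the reference (adjusted p = 0.0154) and with the 6 uninjured arrays as controls (log2 -0.72, adjusted p = 0.0296), and over the alternatives run the adjusted p ranged from 0.0154 to 0.707. *Ntrk2* 1370652_at also lay wholly below the uninjured arrays, at 0.914, 0.835 and 0.5555 (log2 -0.41 ± 0.68, adjusted p = 0.915). Regenerating arrays lay wholly below in these 2 of 12 probe sets, against 10.9% of all probe sets, and wholly above in none, against 10.3%.

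The other *Ntrk2* probe sets overlapped the uninjured arrays. Probe set 1397246_at read 0.739, 0.6615 and 0.708 (log2 -0.51 ± 0.52), 1383135_at read 0.869, 0.907 and 0.806 (-0.22 ± 0.37), 1370687_a_at read 0.962, 0.861 and 0.956 (-0.11 ± 0.23) and 1368972_at read 0.776, 0.983 and 1.09 (-0.090 ± 0.23). All 4 differences were smaller in size than their standard errors. *Sort1* 1372728_at read 0.804, 0.9185 and 0.855 (log2 -0.22 ± 0.22), and 1371004_at read 0.987, 0.849 and 1.19 (-0.0017 ± 0.22). *Ngfr* read 1.15, 0.742 and 1.13 (-0.017 ± 0.31).

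The ligands did not pass either. *Ntf3* read 0.985, 0.875 and 0.799 (log2 -0.18 ± 0.19, 95% interval -0.61 to 0.25). *Bdnf* 1368677_at read 0.871, 0.877 and 1.03 (-0.12 ± 0.25) and 1368678_at read 1.22, 0.932 and 0.986 (0.055 ± 0.25). The 95% intervals of both *Bdnf* probe sets, -0.67 to 0.44 and -0.49 to 0.60, leave out a 2-fold difference in either direction, whereas those of *Ntrk3* and of *Ntrk2* 1370652_at, 1383135_at and 1397246_at do not.

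Of the 206 probe sets of the 6 pathway lists, 0 passed as higher in regenerating axons, against 0.00966% of all probe sets. As lower 4 passed, against 0.335%. They were single probe sets of *Frs2*, an adaptor of Trk receptors, at log2 -3.28 ± 0.55 (adjusted p = 0.0477), of *Akt1* at -1.76 ± 0.30 (adjusted p = 0.0495), of the death agonist *Bad* at -1.67 ± 0.25 (adjusted p = 0.0361) and of the vesicle motor gene *Kif1a* at -3.52 ± 0.59 (adjusted p = 0.0474). *Frs2* read 0.148, 0.0967 and 0.0758 in the regenerating arrays and 0.757 to 2.46 in the uninjured arrays. Calls in this comparison depended on single arrays: over all probe sets 107 passed, 0 did without regenerating array 3 or with a trended robust variance in limma, 6 did without regenerating array 2 and 479 without regenerating array 1. Without uninjured arrays 1, 2, 4, 5 and 6 the counts were 305, 16, 199, 35 and 17. The summed ratio of neuron markers was 13.2 to 15.1 in regenerating and 19.4 to 28.1 in uninjured axons, and 0 of 21 probe sets passed. Their part in the member values was not tested.

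**Figure D4:**
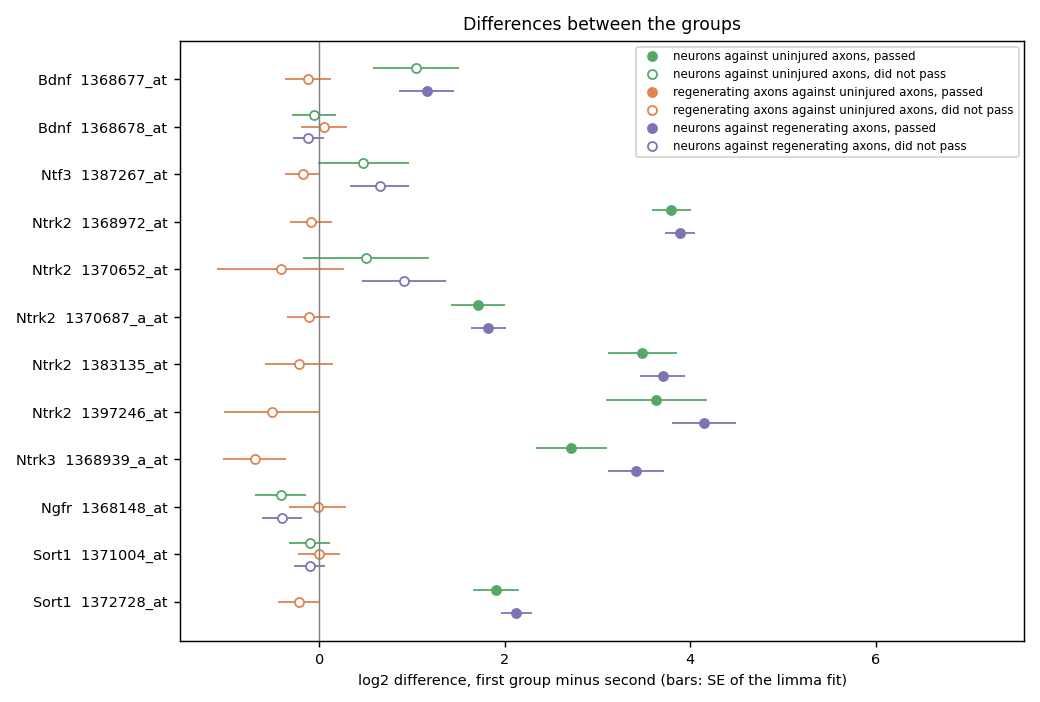
Log2 differences of the 12 member probe sets in the 3 comparisons, with bars for the SE of the limma fit; filled points passed at an adjusted p under 0.05. No orange point (regenerating against uninjured axons) is filled, and the 7 filled purple points (neurons against regenerating axons) include Bdnf 1368677_at.

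Neurons were also compared directly with regenerating axons, where a shared reference cancels. Of the 12 probe sets 7 passed as higher in neurons, against 36.3% of all probe sets, and 0 as lower, against 38.5%. The 6 probe sets named above passed again, from 1.82 ± 0.19 for *Ntrk2* 1370687_a_at to 4.14 ± 0.35 for *Ntrk2* 1397246_at (adjusted p from 2.19e-09 to 3.32e-06), with *Ntrk3* at 3.41 ± 0.30 and *Sort1* 1372728_at at 2.13 ± 0.16. *Bdnf* 1368677_at passed here, at 1.16 ± 0.30 (adjusted p = 0.00357), while 1368678_at was at -0.12 ± 0.17 (adjusted p = 0.547). Against uninjured axons 1368677_at was at 1.04 ± 0.46, an error that includes the assigned error of the reference, which does not enter here. The mean of both *Bdnf* probe sets was 0.52 ± 0.19 (adjusted p = 0.0233).

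The other members did not pass in this comparison, and 3 of them depended on 1 array. *Ntf3* was at 0.65 ± 0.32 (adjusted p = 0.0789) and passed without neuron array 2 (log2 1.07, adjusted p = 0.00158), was at 0.20 without neuron array 3 (adjusted p = 0.412), and passed with arrays centred on their medians (log2 0.74, adjusted p = 0.0442). *Ngfr* was at -0.40 ± 0.21 (adjusted p = 0.105) and passed as lower in neurons without regenerating array 2 (log2 -0.61, adjusted p = 0.0209), with a range from -0.61 to -0.29 when single arrays were left out. *Ntrk2* 1370652_at was at 0.91 ± 0.45 (adjusted p = 0.0828) and passed once uninjured array 5 was left out of the spread (adjusted p = 0.00170) or where only the 2 groups entered (adjusted p = 0.00846). *Sort1* 1371004_at was at -0.10 ± 0.17 (adjusted p = 0.594). Over the alternatives run the adjusted p ranged from 0.00158 to 0.412 for *Ntf3*, from 0.0209 to 0.286 for *Ngfr* and from 0.00170 to 0.238 for *Ntrk2* 1370652_at.

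Probe sets with the most similar profile over the 12 measured arrays were found for the most variable probe set of each member, by the root mean square difference of log2 ratio. *Ntrk2* 1397246_at lay nearest to *Polr2b* (0.167, Pearson r = 0.998) and *Zfp318* (0.220, r = 0.992), *Ntrk3* to *Ppp5c* (0.157, r = 0.993) and the astrocyte marker *Glul* (0.189, r = 0.991), and *Sort1* 1372728_at to *Kmt2a* (0.110, r = 0.996) and *Pfkm* (0.138, r = 0.992). *Bdnf* 1368677_at lay nearest to *Ebi3* (0.151, r = 0.978) and *Mrpl2* (0.155, r = 0.971), *Ntf3* to *Brf1* (0.147, r = 0.952) and *Nat14* (0.164, r = 0.930), and *Ngfr* to *Prb1* (0.137, r = 0.887) and *Ms4a6a* (0.167, r = 0.841). These values describe 12 arrays that share their references. Except for *Ngfr*, the 3 neuron arrays carry most of the variation. For *Ngfr* the SD of the log2 ratio was 0.18 in neurons, 0.36 in regenerating and 0.24 in uninjured arrays.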

How the data were processed

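RNA from pooled axons or neurons was amplified in 2 rounds and labelled with biotin, per the labels' protocols. RMA is named without version or settings in the submitters' processing notes; the authors then deposited linear ratios (ratio to a reference, by a step not given in the sources used here), and the table has 31099 probe sets by 13 arrays. Each array's column was tied to its sample by name. Leaving out controls left 31042, of which 20826 carry 1 symbol, 436 several and 9780 none; only the first were named.

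Log2 ratios of every probe set were fitted with limma 3.58.1 in R 4.3.3 (lmFit, eBayes). For comparisons with uninjured axons, the spread was pooled from the 3 arrays of the group and 6 uninjured arrays, each taken about its set's mean (1 to 3, 4 to 6), and the assumed reference, entered through array 7, was given the error of 1 array. Neurons and regenerating axons were compared with the same uninjured arrays in the spread. P-values were adjusted by Benjamini-Hochberg over 31042 probe sets. The fit was also run on simulated ratios. These had normal noise of the size seen among the uninjured arrays and a reference error of 1 array. Both are what the fit assumes, so this run cannot show whether they hold for the deposited ratios.

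The members and lists were chosen with earlier results of these data known. Named are all members, the top 2 rises and top 2 falls that passed in a list, and the nearest profiles (skipping LOC and RGD symbols); the third probe set of *Lingo1* and the markers named with values were picked after their values were seen. Alternatives were array centring, gene means, an added constant of 0.1, a trended robust variance, the error of the reference, the control group, the samples in the spread, a replicate block and each array left out.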

Additional observations from a re-analysis of the deposited data

Results flagged for a closer look

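Of 12 member probe sets, 3 had an uninjured axon array that lay far from the other 5 measured arrays of its group by Dixon's ratio (above its 95% critical value for 6 arrays), all of them probe sets of *Ntrk2*. For independent values chance alone gives about 1 in 20 groups, a rate that does not hold here, since the scaling sets the median of each 3 arrays to 1. Probe set 1370652_at read 4.19 in array 5, where the next highest array read 1.01 (Dixon's ratio 0.971). Probe set 1397246_at read 2.57 in array 4, where the next read 1.05 (0.824), and 1383135_at read 1.95 in the same array, where the next read 1.07 (0.770).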

How the results depend on the processing

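The 6 probe sets higher in neurons than in uninjured axons passed under all alternatives run for them. The mean per gene called 3 of 6 genes in that comparison (8520 of 14217 genes in all, fewer features being tested) and 4 of 6 in neurons against regenerating axons (11107). When single arrays were left out, 6 to 8 members passed against uninjured axons and 7 to 8 against regenerating axons. Between regenerating and uninjured axons 1 member, *Ntrk3*, passed without an error of the reference and with the 6 uninjured arrays as controls, and 0 when single arrays were left out. All probe sets past the threshold there, 107 in the main setting, numbered 7246 and 5222 in those settings, 50 with the spread over all 3 groups, 0 with a trended robust variance, and 0 to 479 with single arrays left out; the cause was not tested.

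The replicate numbers share no stated batch, so the numbers were not taken as pairs. Same-numbered neuron and regenerating arrays deviated together at r = 0.131, 0.123 and -0.090. For regenerating and uninjured arrays 1 to 3 r was -0.31, -0.084 and -0.141, and for neuron and uninjured arrays -0.103, -0.002 and 0.116. Deviations of 3 arrays about their own mean depend on each other, so these values cannot decide whether arrays are paired. With the replicate block 668 probe sets passed between regenerating and uninjured axons, and 8 members in each comparison of neurons. *Bdnf* 1368677_at (log2 0.96, adjusted p = 0.0174) and *Ntrk2* 1370652_at (0.52, adjusted p = 0.0488) were the added members against uninjured axons in limma. Uninjured array 5, which read 4.19 for 1370652_at, was not in that fit.

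Signs changed for differences that did not pass. With single arrays left out, *Bdnf* 1368678_at ranged from -0.061 to 0.13 for regenerating against uninjured axons and from -0.19 to 0.00072 for neurons against regenerating axons. *Sort1* 1371004_at ranged from -0.13 to 0.12 and from -0.22 to 0.025 in the same comparisons, and from -0.19 to 0.016 for neurons against uninjured axons. For regenerating against uninjured axons, *Ntrk2* 1368972_at ranged from -0.20 to 0.048 and *Ngfr* from -0.12 to 0.19. *Bdnf* 1368678_at was 0.0065 for neurons against uninjured axons with arrays centred, and -0.031 for regenerating axons with 6 controls. *Sort1* 1371004_at was 0.048 and 0.020 for regenerating axons with the replicate block and with 6 controls.

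After these results were seen, values under the mean per gene were dropped for single probe sets of *Bdnf*, *Ntrk2* and *Sort1*, since a gene mean belongs to none of them. 5 of those had counted as a change of sign. The gene means, of the opposite sign to some probe sets, were 0.49, -0.031 and 0.52 for *Bdnf* and 0.90, -0.11 and 1.01 for *Sort1* (neurons and regenerating against uninjured axons, neurons against regenerating axons). Leaving out uninjured arrays was also chosen after seeing the data. Ratios hold no signal over background, so dim probe sets could not be filtered.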
